A study of Arabidopsis thaliana with 36 samples.

Results

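The 150 nuclear transcripts of Arabidopsis thaliana seedlings that lay most strongly in large polysomes are described here, out of 6846 genes tested. For each gene the loading was the large polysomal minus the non-polysomal log2 value of the same time and replicate, which gave 12 values. Genes were kept when the loading was above 0 in 12 of 12 extracts and the large polysomal value was above the small polysomal one in 12 of 12, and the 150 with the largest mean loading were taken. The members were thus chosen by their own large, small and non-polysomal values, so loadings and fraction differences are given below as descriptions, without a test. Of 6761 nuclear genes tested, 853 met both conditions on sign, and another 25 genes had a mean loading as large as a member's but had large above small polysomal RNA in 2 to 11 of 12 extracts.

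The study followed wild-type Columbia seedlings, 10 days old, over 1 diurnal cycle and took the aerial parts; plates held 1% sucrose, and lights were on for 16 h and off for 8 h. RNA of each extract was split into a large polysomal, a small polysomal and a non-polysomal fraction at Zeitgeber time 0 (ZT0, lights on), ZT6, ZT12 and ZT18, the last of these in the dark. The 12 groups (4 times, 3 fractions) had 3 replicates each, 36 arrays in all. Seedlings overexpressing CCA1, which the design also names, were not analysed here, so every array came from the same genotype and growth regime. The labels do not say whether replicates were separately grown plants, and p-values then cover only the spread among the arrays or extracts at hand.

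An mRNA under translation carries several ribosomes at once, and sedimentation through a sucrose gradient separates mRNAs with many ribosomes from those with few and from those held in free ribonucleoprotein particles. How far an mRNA moves into the gradient depends, among other things, on how often translation starts and on how many ribosomes its coding region can hold. Large polysomal enrichment is therefore read as a sign of more ribosomes per mRNA, and not by itself of the protein made. Here it is a difference of values relative to each array, and ribosomes per mRNA were not counted.

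Values were GCRMA summaries on a log2 scale between 2.2, the floor, and 15.14. Replicate arrays correlated at 0.934 or more over probe sets. The leaf gene RCA, which encodes Rubisco activase, had a mean of 12.61 over all arrays. Of 10 root markers, 2 were on the table: EXPA7, an expansin of root hairs, was at the floor of 2.2, whereas PYK10, a beta-glucosidase abundant in roots, averaged 9.95, and neither was a member. The 27 probe sets of added poly(A) control RNAs stood below their non-polysomal value in large polysomes in 12 of 12 extracts, with a mean log2 difference of -1.61 ± 0.73 (SD, n = 12). The 18 hybridisation control probe sets were lower there too, by -0.75 ± 0.22 and in 12 of 12. The difference between the 3' and 5' probe sets, a sign of RNA quality or of priming, was larger in large polysomal than in non-polysomal samples in 11 of 12 extracts for actin (0.98 ± 0.62) and in 12 of 12 for GAPDH (0.45 ± 0.26). The members' differences are relative to each array's own signal, and the part of these shifts in them was not tested.

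The members had a median loading of 2.26, against 0.03 over all genes tested. A loading above 0 in 12 of 12 extracts was found for 25.2% of all genes tested, and it was required of the members. The members' median loading lay between 2.16 and 2.35 in each of the 12 extracts, while the median over all genes lay between -0.04 and 0.12. The SD of a member's loading over the 12 extracts had a median of 0.42 and ranged from 0.20 to 0.94. At the edge of the set stood AT5G48960 with a mean loading of 1.885, the receptor-like kinase gene THE1 with 1.883 and AT5G35970 with 1.877, and just outside it AT1G23180 with 1.8695, AT5G11560 with 1.8691 and CR4 with 1.866, so that no gap separates members from the genes next in order.

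**Figure D1:**
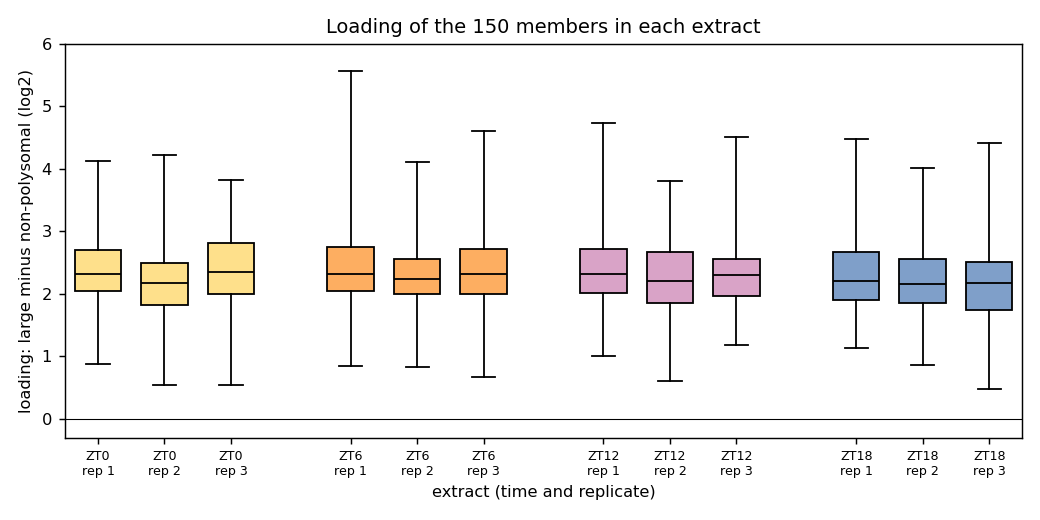
Loading (large polysomal minus non-polysomal, log2) of the 150 members in each of the 12 extracts, ordered by time and replicate. Boxes give the quartiles, the line the median and the whiskers the lowest and highest member. The medians lie between 2.16 and 2.35 at all 4 times.

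The highest loading belonged to AT1G64370. Its large polysomal values ran from 9.03 over a median of 10.07 to 10.80 in 12 arrays, its small polysomal values from 6.43 over 6.99 to 7.93, and its non-polysomal values from 4.99 over 5.74 to 6.33. The 3 ranges did not overlap, and the mean loading was 4.29 ± 0.54 (SD, n = 12). AT4G34290, which encodes a SWIB-domain protein, came second with a loading of 3.73 ± 0.45. It had 8.67 to 9.54 in large polysomes (median 9.25), 6.86 to 7.83 in small polysomes (median 7.16) and 4.77 to 5.87 free of polysomes (median 5.60), again with no overlap. AT5G45350, a proline-rich protein gene, followed with 3.64 ± 0.50, and AT1G04800, a glycine-rich protein gene, with 3.58 ± 0.42.

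Chromatin and nuclear proteins were encoded by 5 members, with a median loading of 2.13. AT5G55660, a gene for a DEK-domain protein that binds chromatin, had 7.95 to 10.08 in large polysomes (median 9.20), 7.19 to 8.54 in small polysomes (median 7.82) and 4.20 to 7.69 in the non-polysomal fraction (median 6.09). Its highest non-polysomal array overlapped the small polysomal range but stayed below every large polysomal array, and the loading averaged 3.17 ± 0.60. HTB2, which encodes a histone H2B, had a loading of 2.13 ± 0.30, and its large polysomal values of 10.85 to 12.57 (median 11.72) stood above its non-polysomal values of 8.69 to 10.59 (median 9.58). The HMG-box gene 3xHMG-box2, the bromo-adjacent-homology gene AT4G11560 and the nuclear pore gene NUP1 were the other members of this group. Of 6 H2B genes tested, 5 had a loading above 0 in 12 of 12 extracts, with means from 1.01 for HTB11 to 2.13 for HTB2. The remaining one, AT2G37470, was almost evenly spread, with 10.83 in large polysomes and 10.70 free of them. Both DEK-domain genes tested were above 0 in 12 of 12, and AT3G48710, which is no member, had a loading of 1.20 ± 0.41. Among 8 SWIB-domain genes tested, 4 were above 0 in 12 of 12 and none below in 12 of 12. AT1G31760 had a loading of -0.41 ± 0.74 and CHC1 one of -0.36 ± 0.37, so membership was not shared across the SWIB-domain genes.

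**Figure D2:**
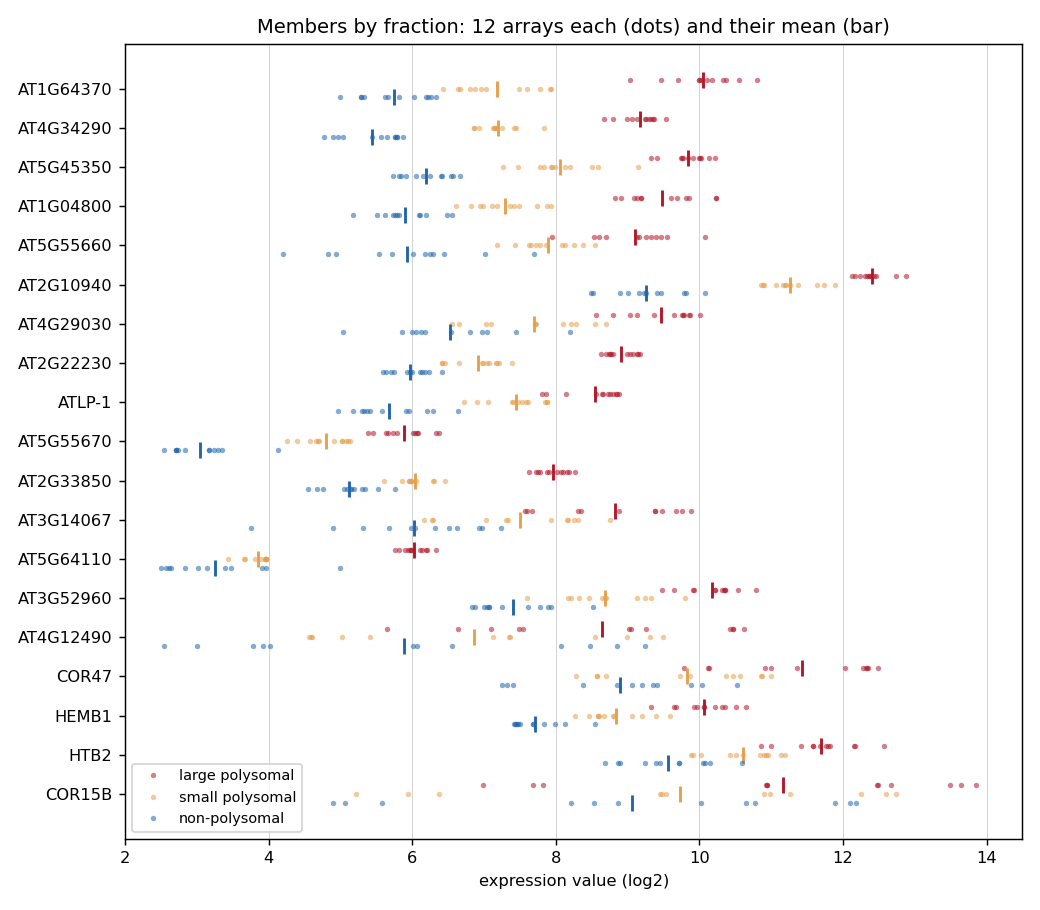
Expression values (log2) of the 15 members with the largest loading and of the listed members COR47, HEMB1, HTB2 and COR15B, in the large polysomal, small polysomal and non-polysomal fraction. Dots are the 12 arrays of a fraction over all times and bars their means; for AT1G64370 the 3 fractions do not overlap, while COR15B spans 6.99 to 13.86 in large polysomes.

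The largest functional group among the members was that of 28 genes for secreted and cell wall proteins, with a median loading of 2.39. The groups by function were formed by hand, from general knowledge of the genes, after the members were listed, and they cover 88 of the 150. Other tested genes were not grouped, so the size of a group cannot be set against a share over all genes. AT2G10940, a lipid-transfer-type protein gene, had the largest loading of them. It reached 12.12 to 12.88 in large polysomes (median 12.36), 10.86 to 11.89 in small polysomes (median 11.20) and 8.49 to 10.08 free of polysomes (median 9.24), with a loading of 3.14 ± 0.39. ATLP-1, a thaumatin-like protein gene, had a loading of 2.87 ± 0.44. Some members came from the same enzyme classes, which were not set against the other genes of their families. The subtilase genes AT3G14067, ATSBT5.2, AT3G14240 and AT2G05920 had mean loadings of 2.81, 2.54, 2.45 and 2.20, and the aspartyl protease genes AT1G09750, AT3G54400, AT3G52500, AT4G04460 and AT5G07030 had 2.51, 2.47, 2.28, 2.19 and 2.105. The chitinase-type genes AT2G43620, AT2G43590 and CHI had 2.37, 2.28 and 2.02. They lie near each other and are close copies, as are the lipid-transfer genes AT4G12490 (2.76) and AT4G12500 (2.42), and cross-hybridisation between such copies was not tested.

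Receptor-like kinases, which read signals outside the cell, gave 8 members with loadings between 1.88 and 2.65. The largest was that of AT4G36180, with 7.21 in large polysomes, 6.26 in small polysomes and 4.55 in the non-polysomal fraction on average. PSY1R, the receptor of a sulfated growth peptide, had a loading of 2.27 ± 0.35, and THE1, a sensor of cell wall integrity, one of 1.88 ± 0.38. Membrane traffic and the cytoskeleton gave 6 members. They included AT2G21390, for the alpha subunit of the COPI coat (2.16 ± 0.22), TPLATE, for an endocytosis adaptor (1.96 ± 0.40), the formin genes AT5G48360 (2.48 ± 0.50) and AT2G43800 (2.35 ± 0.45), and the tubulin gene TUB7 (1.97 ± 0.25).

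Nuclear genes for plastid proteins gave 20 members with loadings from 1.89 to 2.94. AT2G22230, a hydroxyacyl-ACP dehydratase gene of fatty acid synthesis, led them with 8.63 to 9.17 in large polysomes (median 8.89), 6.42 to 7.39 in small polysomes (median 7.01) and 5.59 to 6.42 free of polysomes (median 5.98). Only the small polysomal and the non-polysomal range met, at 6.42. AT3G52960, a peroxiredoxin gene, had a loading of 2.77 ± 0.39. Plastid gene expression and protein handling was represented by FUG1, a translation initiation factor (2.13 ± 0.37), AT1G64510, a ribosomal protein (1.89 ± 0.58), CFM3A, an intron splicing factor (2.33 ± 0.65), CRR21, an RNA editing factor (2.18 ± 0.71), CLPP4 and AT1G09130, Clp protease subunits (2.49 ± 0.36 and 1.97 ± 0.20), SECE1, a thylakoid translocase subunit (2.03 ± 0.40), and AT5G55220, a trigger factor (1.93 ± 0.48). Both genes of Rubisco accumulation factor 1, AT3G04550 and AT5G28500, were members, with 2.51 ± 0.39 and 2.24 ± 0.54. HEMB1, which encodes an early enzyme of tetrapyrrole and so of chlorophyll synthesis, had 9.33 to 10.65 in large polysomes and 7.42 to 8.54 free of polysomes. It was the 1 member among 7 chlorophyll synthesis genes tested, 5 of which had a loading above 0 in 12 of 12 extracts and 2 below 0 in 12 of 12. Within this pathway CHLM, a methyltransferase, lay on the other side, with 11.65 in large polysomes and 12.49 free of them.

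Cytosolic translation and mRNA processing gave 10 members. They included the eIF1A initiation factor genes AT2G04520 and AT5G35680 (2.21 ± 0.68 and 2.03 ± 0.32), the nonsense-mediated decay factor gene AT2G39260, a UPF2 (2.45 ± 0.44), the splicing factor gene AT5G64270, an SF3B1 (1.89 ± 0.26), and the histidyl-tRNA synthetase gene AT3G02760 (2.21 ± 0.38). Redox proteins outside the plastid gave 5 members, led by the glutaredoxin gene AT5G18600 (2.46 ± 0.37) and joined by PRXIIF and the thioredoxin gene TO1. TIC, the clock-linked TIME FOR COFFEE gene, had a loading of 2.70 ± 0.59.

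Dehydrins and related late embryogenesis abundant proteins, which protect cells under cold and drought, gave 4 members. COR47 had 9.78 to 12.49 in large polysomes (median 11.70), 8.28 to 11.00 in small polysomes (median 10.12) and 7.25 to 10.53 free of polysomes (median 9.13), with a loading of 2.54 ± 0.47. These ranges over all 4 times overlapped, while within each extract the loading was at least 1.51. M17 had a loading of 2.53 ± 0.43, AT1G54410, a small dehydrin gene, one of 2.52 ± 0.67, and COR15B one of 2.099 ± 0.47. All 4 dehydrin and cold-regulated genes tested were above 0 in 12 of 12, the others being LTI30 with 1.79 ± 0.59 and COR15A with 1.09 ± 0.45.

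The loading is the sum of a first step, small polysomal minus non-polysomal, and a second, large minus small polysomal. The medians of the members were 1.13 for the first step and 1.12 for the second, against 0.0382 and -0.0045 over all genes tested. Small polysomal values were above non-polysomal ones in 12 of 12 extracts for 121 of the 150, a share of 80.7% where 17.2% of all genes tested did so, and this shares arrays with the rule. In 75 members the second step was the larger one. At one end stood AT4G28080, which reached 81.7% of its loading in small polysomes, with mean values of 10.46 in large polysomes, 9.99 in small polysomes and 7.87 free of polysomes. TIC reached 79.6% there. At the other end AT4G19200 reached 9.90%, with means of 6.68, 4.38 and 4.13 in the same order of fractions, and AT5G44380 reached 12.15%; both were named after their values were seen. AT1G64370 reached 33.1%, so most of the highest loading in the set was gained between small and large polysomes.

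Gene span, the distance from the first to the last base of the gene in the RefSeq annotation of assembly TAIR10.1, introns included, was not used by the rule. It stands in for transcript length only roughly. The members had a median span of 2296 bp, with quartiles of 1484 and 3505 bp. All 6761 nuclear genes tested had a median of 2322 bp, with quartiles of 1706 and 3218 bp. Of the members, 15 (10.0%) spanned under 1000 bp, against 6.3% of all nuclear genes, and 25 (16.7%) spanned over 4000 bp, against 13.2%. These differences were not tested. The 150 nuclear transcripts most depleted from large polysomes, taken by the opposite rule, had a median span of 1588 bp, with 24.7% under 1000 bp and 4.0% over 4000 bp. The 3 shortest members were CML30, a calmodulin-like gene of 647 bp, AT1G03020, a glutaredoxin gene of 673 bp, and AT4G22490, a lipid-transfer gene of 784 bp. The 3 longest were AT4G28080 with 9505 bp, AT2G39260 with 7889 bp and TIC with 6803 bp.

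Within the members, span went with the step at which the loading was gained. Over the 150 genes, Spearman's rho between span and the difference of large from small polysomes was -0.48, that between span and the difference of small polysomes from the non-polysomal fraction was 0.26, and that with the whole loading was -0.24. Over all 6761 nuclear genes the same coefficients were 0.11, 0.22 and 0.21. These are descriptions across genes that share all 36 arrays, and the limit on mean loading ties the steps to each other among the members. In the 50 longest members, of 3138 bp or more, the median first step was 1.25 and the median second step 0.90, and the second was the larger in 15. In the 50 shortest, of 1735 bp or less, the medians were 1.08 and 1.31, and the second step was the larger in 32. CML30, the shortest, gained 0.63 in the first step and 1.68 in the second, whereas TIC gained 2.15 and 0.55.

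**Figure D3:**
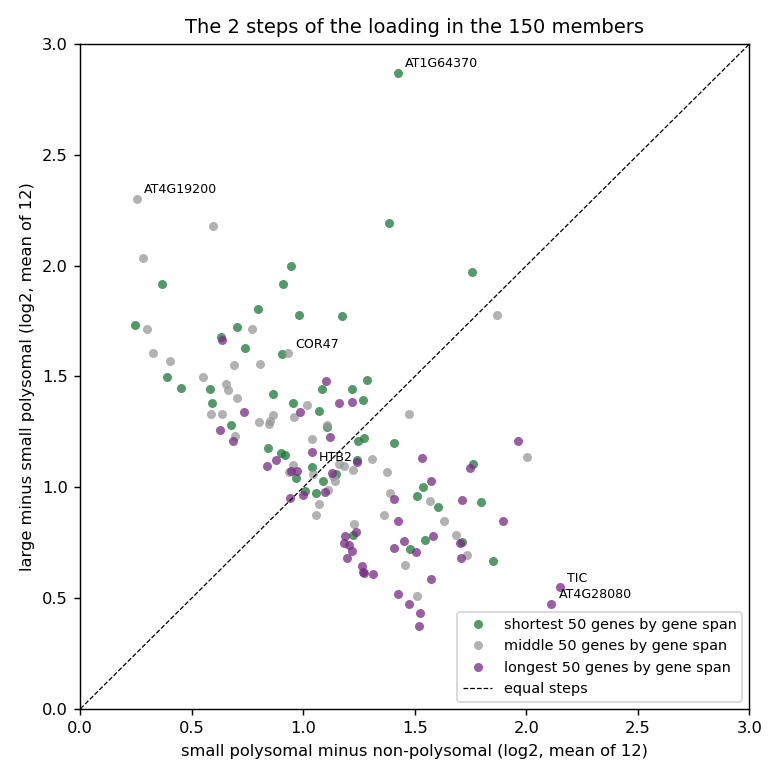
Mean first step (small polysomal minus non-polysomal, log2, horizontal) and mean second step (large minus small polysomal, log2, vertical) of each of the 150 members over 12 extracts, coloured by gene span in 3 bins of 50. The dashed line marks equal steps; 75 members lie above it, among them 32 of the 50 shortest and 15 of the 50 longest genes.

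Whether the loading changed with time was asked with limma on all 36 arrays, a question the choice by mean loading does not answer, although the demand for 12 positive values limits how far a member's loading can fall. Without a block for the extract, 5 of 150 members (3.33%) differed over the 4 times, where 2.85% of all genes tested did, which is near the background. Between ZT6 and ZT18 the loading of 3 members was higher at ZT6, where 0.672% of all genes were, and that of 1 was lower, where 4.37% were. Between ZT12 and ZT0 none was higher (0.117% of all genes) and 1 was lower (0.0292%). That fit leaves out the pairing of the fractions within an extract. With the extract as a block, which takes the pairing in, 11 members (7.33%) differed over the day, where 11.2% of all genes did. The counts were then 11 higher (4.40% of all genes) and 6 lower (9.93%) at ZT6 against ZT18. At ZT12 against ZT0 they were 2 higher (0.526%) and 1 lower (0.248%). How many members changed thus depends on the fit. Fractions of an extract did correlate, in all 36 pairs (r 0.13 to 0.68), and only the fit with the block takes this in. The loading p-values of single members below come from the fit without the block, unless the block is named. Of the calls made only with the block, that of AT4G12490 alone is given below. The added poly(A) controls had a difference of large from non-polysomal RNA of -0.97 ± 0.43 at ZT6, against -2.02 ± 0.71 at ZT18 (SD, n = 3), and the 62 plastid-encoded genes one of -0.45 ± 0.16 at ZT6, against -2.07 ± 0.04 at ZT18. The part of these shifts in the members' loadings was not tested.

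AT5G64110, a class III peroxidase gene, had loadings of 2.80, 2.57 and 3.31 at ZT0, 3.35, 3.58 and 3.58 at ZT6, 3.37, 3.49 and 2.63 at ZT12 and 1.91, 1.79 and 0.91 at ZT18. The 3 night values lay below all 9 others. The loading at ZT6 exceeded that at ZT18 by 1.97 ± 0.31 (SE; limma adjusted p = 0.000921). In the non-polysomal fraction the mean was 2.60 at ZT6, against 4.29 at ZT18, while in large polysomes it was 6.11 at ZT6, against 5.83 at ZT18, so the difference lay mostly in the non-polysomal fraction. That fraction was close to the floor of the scale at ZT6. AT5G44380, a gene of the berberine bridge enzyme family, had loadings of 3.10, 2.21 and 3.57 at ZT6, against 1.70, 0.94 and 1.10 at ZT18, a difference of 1.71 ± 0.50 (limma adjusted p = 0.0402). Its means were higher at ZT18 in every fraction, but by unequal amounts: the large polysomal mean was 5.96 at ZT6, against 6.74 at ZT18, and the non-polysomal mean was 3.00 at ZT6, against 5.50 at ZT18.

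ATSBT5.2, a subtilase gene, had loadings of 1.73, 1.55 and 2.38 at ZT0, 3.41, 3.03 and 3.46 at ZT6, 3.21, 3.25 and 3.08 at ZT12 and 2.05, 1.92 and 1.37 at ZT18. The 6 values of ZT6 and ZT12 lay above the 6 of ZT0 and ZT18. ZT6 exceeded ZT18 by 1.52 ± 0.38 (limma adjusted p = 0.0169), with a large polysomal mean of 9.88 at ZT6, against 7.10 at ZT18, and a non-polysomal mean of 6.58 at ZT6, against 5.32 at ZT18. AT5G01870, a lipid-transfer gene, went the other way. Its loadings were 2.44, 2.57 and 2.56 at ZT0, 0.84, 0.83 and 0.67 at ZT6, 1.82, 1.93 and 2.79 at ZT12 and 3.10, 2.55 and 2.64 at ZT18. All 3 values of ZT6 were below all others, and the loading was lower at ZT6 than at ZT18 by a log2 difference of -1.98 ± 0.42 (limma adjusted p = 0.00514). Here the large polysomal mean was 11.14 at ZT6, against 11.43 at ZT18, while the non-polysomal mean was 10.36 at ZT6, against 8.66 at ZT18.

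AT1G54410, the small dehydrin gene, had a mean of 14.10 in large polysomes, near the top of the scale. Its loadings were 3.64, 3.43 and 2.91 at ZT0, 2.46, 1.59 and 2.00 at ZT6, 2.27, 1.77 and 1.81 at ZT12 and 3.00, 2.39 and 2.92 at ZT18. The ZT0 values lay above those of ZT6 and ZT12, and the loading was lower at ZT12 than at ZT0 by -1.38 ± 0.29 (limma adjusted p = 0.0289). The non-polysomal mean was 12.40 at ZT12, against 10.45 at ZT0, and the large polysomal mean was 14.35 at ZT12, against 13.78 at ZT0. AT5G07030, an aspartyl protease gene, differed over the 4 times (limma adjusted p = 0.0309), with mean loadings of 1.03 ± 0.42 at ZT0, 2.51 ± 0.36 at ZT6, 2.62 ± 0.48 at ZT12 and 2.26 ± 0.27 at ZT18 (SD, n = 3). The 5 calls over the day were lost without replicate 1, 2 or 3 (limma adjusted p 0.0891 to 0.354), as was the call of AT1G54410 between ZT12 and ZT0 (0.292 to 0.526), whose difference stayed between -1.235 and -1.52. Between ZT6 and ZT18, all 4 calls held without replicate 2 (0.024 to 0.0483) and were lost without replicate 3 (0.0795 to 0.323), and without replicate 1 only that of AT5G64110 held (0.0291). These differences stayed between 1.61 and 2.23 for AT5G64110, 1.33 and 1.93 for AT5G44380, 1.23 and 1.73 for ATSBT5.2, and -1.85 and -2.11 for AT5G01870. Leaving out replicates 2 and 3 of ZT18 left 0 members called over the day or between ZT6 and ZT18.

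**Figure D4:**
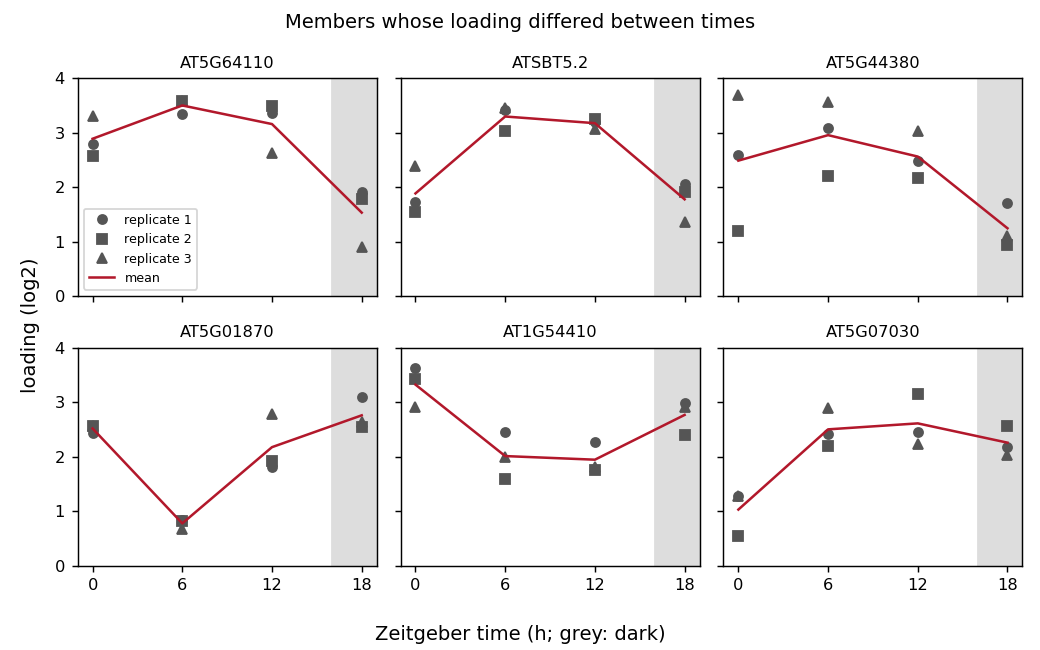
Loading (large polysomal minus non-polysomal, log2) of the 6 members called in a test of time without the extract as a block. Symbols are the 3 replicates and the line their mean, against Zeitgeber time in hours. Grey marks the dark; AT5G64110, ATSBT5.2 and AT5G44380 are lowest on average at ZT18, AT5G01870 at ZT6, AT1G54410 at ZT12 and AT5G07030 at ZT0.

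Over the 4 times, transcript level was called in more genes than loading was without a block, among the members as among all genes tested. The shares were 62.0% against 3.33% of the members and 58.1% against 2.85% of all genes. The 2 tests use different values, so these shares do not compare the size of the changes. The level was taken as the mean of the 3 fractions of an extract, each counting alike, and was fitted with limma over the 12 extracts. In bulk tissue, fewer cells of a type and less RNA per cell cannot be told apart. Over the 4 times 93 of 150 members (62.0%) differed, where 58.1% of all genes tested did. Between ZT6 and ZT18, 44 members (29.3%) were higher at ZT6, where 20.3% of all genes were, and 21 (14.0%) were lower, where 17.6% were. The median difference was 0.20 in the members and 0.01 over all genes. Between ZT12 and ZT0, 48 members (32.0%) were higher at ZT12, where 18.4% of all genes were, and 12 (8.00%) were lower, where also 18.4% were, with a median difference of 0.23 in the members and 0.01 over all genes. With cyclic loess normalization the split over all genes between ZT6 and ZT18 turned to 1235 higher and 1418 lower, while that of the members was 37 higher and 24 lower. Without replicates 2 and 3 of ZT18, 24 members were called higher at ZT6 and 13 lower, and leaving out replicate 1, 2 or 3 at every time gave 28 to 31 higher and 12 to 17 lower. The poly(A) controls averaged 4.50 ± 0.11 over the fractions at ZT6, against 5.49 ± 0.62 at ZT18. In replicates 1, 2 and 3 of ZT18 they averaged 4.78, 5.82 and 5.88. The plastid-encoded genes averaged 7.76, 11.08 and 10.15 there, against 8.04, 9.23 and 8.93 at ZT6. Replicates 2 and 3 of ZT18 thus stood apart from replicate 1. The plastid-encoded mean of replicate 1 was the lowest at the other times too, with 8.38, against 9.81 and 9.27, at ZT0 and 8.18, against 9.39 and 9.98, at ZT12. The part of these shifts in the counts was not tested. In large polysomes alone, 92 of 150 members were higher on average at ZT6 than at ZT18, where 47.4% of all genes were. There, 100 of 150 were higher at ZT12 than at ZT0, where 49.0% of all genes were.

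Both contrasts were called in 31 members, ZT6 against ZT18 alone in 34, ZT12 against ZT0 alone in 29 and neither in 56. Over all genes tested these shares were 18.2%, 19.7%, 18.5% and 43.5%, against 20.7%, 22.7%, 19.3% and 37.3% of the members. Of the 31, the level was higher at ZT6 than at ZT18 and higher at ZT12 than at ZT0 in 21, higher and then lower in 6, lower and then higher in 2 and lower in both in 2. The 21 are 14.0% of the members, where 7.13% of all genes tested were higher in both. The 2 lower in both are 1.33%, where 5.76% of all genes were.

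The 4 dehydrin and late embryogenesis members were all higher at ZT6 than at ZT18. COR15B changed most: its level was 6.32, 6.45 and 5.76 at ZT0, 11.32, 11.39 and 11.37 at ZT6, 12.90, 12.76 and 12.60 at ZT12 and 9.54, 9.78 and 9.64 at ZT18. The replicates of different times did not overlap, and ZT12 exceeded ZT0 by 6.57 ± 0.17 (SE; limma adjusted p = 1.98e-11). COR47 had 11.02, 11.30 and 11.13 at ZT12, against 8.57, 8.54 and 8.70 at ZT0, a difference of 2.55 ± 0.17 (limma adjusted p = 1.45e-07). M17 ran differently, with 8.21, 7.66 and 8.35 at ZT12, against 9.83, 8.83 and 10.05 at ZT0, a difference of -1.50 ± 0.49 (limma adjusted p = 0.0301). This call was lost without replicate 1 or without replicate 3, with adjusted p-values up to 0.169 over the alternatives that ended it. All 4 listed dehydrin and cold-regulated genes tested were called higher in both contrasts, LTI30 and COR15A outside the members included.

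Of the 20 plastid protein members, 8 had a higher level at ZT6 than at ZT18 and 0 a lower one, and the counts for ZT12 against ZT0 were also 8 and 0. Over all genes tested the shares were 20.3% higher and 17.6% lower at ZT6, and 18.4% each way at ZT12. Higher at ZT6 were also 5 of 5 photosystem and electron transport genes tested, with 0 members, and 6 of 7 chlorophyll synthesis genes. In both lists 0 were lower. Of 3 light-harvesting genes, 2 were higher and 1 lower. At ZT12 these lists had 2, 3 and 1 genes higher and 1 lower each. A higher level at ZT6 was thus not particular to the members. AT3G04550, for Rubisco accumulation factor 1, had levels of 9.31, 9.06 and 8.97 at ZT12, against 7.08, 7.11 and 7.45 at ZT0, a difference of 1.90 ± 0.19 (limma adjusted p = 5.72e-06). Its paralogue AT5G28500 differed in the same direction by 1.16 (limma adjusted p = 0.0084). TRXF2, a thioredoxin f that activates Calvin cycle enzymes in the light, was higher at ZT6 than at ZT18 by 1.88 (limma adjusted p = 9.2e-06).

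Of the 28 secreted and cell wall members, 7 lay above and 7 below their ZT18 level at ZT6, which is near the 20.3% and 17.6% of all genes tested. At ZT12, 10 lay above and 3 below their ZT0 level, where 18.4% of all genes did each way. AT1G62510, a lipid-transfer gene, had levels of 10.50, 11.14 and 10.64 at ZT6, against 5.62, 6.88 and 6.97 at ZT18, a difference of 4.27 ± 0.33 (limma adjusted p = 7.04e-07). AT3G53980, of the same class, was higher by 2.20 ± 0.36 (limma adjusted p = 0.000365), and the subtilase gene AT3G14067 by 2.11 ± 0.16 (limma adjusted p = 5.35e-07). The lipid-transfer genes AT4G12490 and AT4G12500 went the other way. AT4G12490 had 5.56, 4.73 and 7.40 at ZT6, against 9.36, 9.73 and 9.53 at ZT18, and AT4G12500 had 2.97, 2.90 and 4.24 at ZT6, against 6.83, 7.39 and 6.93 at ZT18. The groups did not overlap in either gene, and the differences were -3.64 ± 1.02 (limma adjusted p = 0.0126) and -3.68 ± 0.86 (limma adjusted p = 0.00436). In AT4G12500 the non-polysomal value was at the floor of the scale, 2.20, in replicates 1 and 2 of ZT6, so its difference has no exact size and may be larger. In both genes, as in the chitinase gene AT2G43620 (-2.18 ± 0.72, limma adjusted p = 0.0294), replicate 3 of ZT12 stood above the other 2, with levels of 9.03, 6.71 and 8.28 in the order named. The call of AT4G12500 was lost without replicates 2 and 3 of ZT18 (adjusted p = 0.0823), and those of AT4G12490 and AT2G43620 under 5 alternatives each, among them leaving out replicate 1 or replicate 2 (adjusted p up to 0.141 and 0.261). AT5G62350, a pectin methylesterase inhibitor gene, had 9.60, 9.59 and 10.04 at ZT12, against 7.44, 7.83 and 7.73 at ZT0, a difference of 2.08 ± 0.17 (limma adjusted p = 7.06e-07). AT4G16980, an arabinogalactan protein gene, was lower at ZT12 than at ZT0 by -0.95 ± 0.16 (limma adjusted p = 0.00047).

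Of the 8 receptor-like kinase members, 0 had a higher level at ZT6 than at ZT18 and 2 a lower one, where 20.3% and 17.6% of all genes tested were. At ZT12 against ZT0, 2 were higher, AT4G36180 by 1.00 (limma adjusted p = 0.00962) and AT3G56370 by 0.38 (limma adjusted p = 0.0386), and 2 were lower, where 18.4% of all genes were in each direction. THE1 had 5.92, 5.63 and 5.69 at ZT6, against 8.77, 8.33 and 8.30 at ZT18, a difference of -2.72 ± 0.35 (limma adjusted p = 4.78e-05). PSY1R had 5.81, 6.07 and 6.31 at ZT12, against 7.18, 7.15 and 7.50 at ZT0, a difference of -1.21 ± 0.16 (limma adjusted p = 6.58e-05). In the chromatin group, HTB2 was higher at ZT12 than at ZT0 by 0.93 (limma adjusted p = 0.001) and 3xHMG-box2 by 1.65 (limma adjusted p = 0.00013). All 6 H2B genes tested were higher at ZT12 than at ZT0. Of the 10 members for cytosolic translation and mRNA processing, only AT5G55670, an RNA-binding protein gene, was called in either contrast, lower at ZT12 than at ZT0 by -0.56 (limma adjusted p = 0.018). Neither contrast was called in 43.5% of all genes tested and in 37.3% of the members.

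Members outside these groups held some of the widest swings. AT5G35970 had 11.76, 11.11 and 11.14 at ZT6, against 7.96, 7.79 and 7.35 at ZT18, a difference of 3.64 ± 0.21 (limma adjusted p = 6.43e-08). It was lower at ZT12 than at ZT0 by -2.48 ± 0.21 (limma adjusted p = 1.28e-06). AT3G10020 was higher at ZT12 than at ZT0 by 2.90 ± 0.22 (limma adjusted p = 3.4e-07) and higher at ZT6 than at ZT18 by 2.58 ± 0.22 (limma adjusted p = 1.35e-06). AT3G16530, a legume-type lectin gene, had 6.20, 5.21 and 6.48 at ZT6, against 9.24, 10.02 and 9.89 at ZT18, a difference of -3.75 ± 0.38 (limma adjusted p = 6.62e-06). AT2G21640, a known marker of oxidative stress, was lower at ZT12 than at ZT0 by -1.45 ± 0.27 (limma adjusted p = 0.000994).

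**Figure D5:**
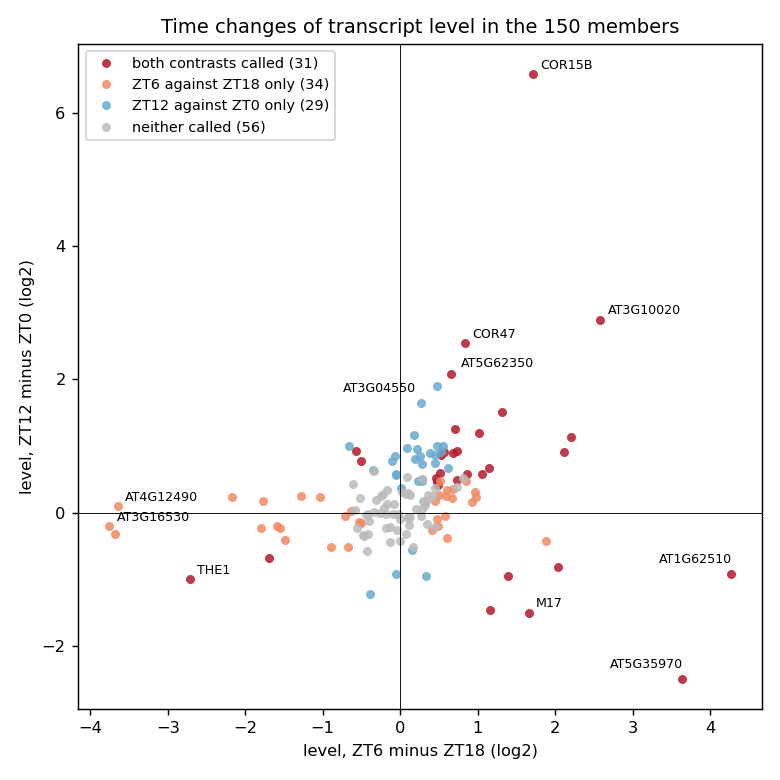
Difference in transcript level (mean of the 3 fractions, log2) of each of the 150 members between ZT6 and ZT18 (horizontal) and between ZT12 and ZT0 (vertical), coloured by which contrast passed limma's adjusted p of 0.05. COR15B lies highest at 6.57 on the vertical axis, AT1G62510 farthest right at 4.27 and AT3G16530 farthest left at -3.75.

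Loading and level were set side by side for single members. The 2 share the large and non-polysomal arrays, and a change in the non-polysomal value alone moves them in opposite directions. COR15B, whose level at ZT12 exceeded that at ZT0 by 6.57, had loadings between 1.30 and 2.78, and the rule required all 12 to be above 0. They were 1.76, 1.30 and 1.76 at ZT12, against 2.78, 2.25 and 1.92 at ZT0. The ZT12 values all lay below the ZT0 values, but this difference was not called with or without the block. AT4G12490 had loadings of 3.71, 3.62 and 3.03 at ZT6, against 2.14, 1.22 and 1.57 at ZT18, where its level was highest, and the night values lay below all 9 others. That difference was not called without the block (1.81, limma adjusted p = 0.563) and was called with it (limma adjusted p = 0.000354). Of the 6 members called for loading over time without the block, AT5G44380, ATSBT5.2, AT5G64110 and AT1G54410 were also called for level between ZT6 and ZT18. In that contrast 20.3% of all genes tested were called higher and 17.6% lower, and 29.3% and 14.0% of the members. The overlap was not tested. The level of AT1G54410 was higher at ZT6 by 1.02 (limma adjusted p = 4.19e-05), while its loading difference of -0.76 between these times was not called (limma adjusted p = 0.118). It was also higher at ZT12 than at ZT0, by 1.20 (limma adjusted p = 8.75e-06), where its loading was lower. The level of ATSBT5.2 was higher at ZT6 by 2.04 (limma adjusted p = 2.85e-06), in the same direction as its loading. Those of AT5G44380 and AT5G64110 were lower at ZT6, by -1.55 (limma adjusted p = 5.6e-05) and -0.50 (limma adjusted p = 0.019), against the direction of their loading. For AT5G64110 the level difference lay in the non-polysomal fraction, with a mean of 2.60 at ZT6, against 4.29 at ZT18. Its small polysomal mean was 3.87, against 3.96, and its large polysomal mean 6.11, against 5.83. The opposite directions are thus no separate observation for this gene.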

How the data were processed

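The authors deposited 1 log2 value per probe set and array, summarised by GCRMA with affy 1.42.3 under R 3.1, per the submitters' processing notes. Per the labels' protocols, cDNA was primed with oligo(dT) and hybridised to Affymetrix arrays. Values are relative to each array. Of 22810 probe sets (64 controls), 13513 pair with 1 gene, 503 with several and 8730 are unnamed here. Genes with a mean of at least 4 over 36 arrays were tested, by their brightest single-gene probe set. Of the 6846, 6823 matched the RefSeq table of TAIR10.1 (GCF_000001735.4), which gave symbols and spans.

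Loading was fitted on 36 arrays in 12 groups and level on 12 extracts (limma 3.58.1, R 4.3.3), with F tests over the 4 times and contrasts 12 h apart, 2-sided, Benjamini-Hochberg adjusted over all 6846 genes, called under 0.05. The fits were tested on simulated data. Deviations from group means correlated between fractions of an extract in all 36 pairs (r 0.13 to 0.68), so extracts pair the fractions. The alternatives were median centring, cyclic loess, no filter on dim genes, a trended robust variance, the mean of all probe sets, leaving out each replicate, leaving out replicates 2 and 3 of ZT18, and replicate blocks.

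Members and gene lists were chosen with earlier results of these data known. Named are the 15 largest loadings, list members, up to 5 called members a test and direction (5 for F) whose times do not overlap, 3 genes on each side of the limit, the longest and shortest spans, and members of known role. Lists without a member were linker histone and HMG genes (3 tested, 2 with loading above 0 in 12 of 12), photosystem and electron transport (5, 4), light-harvesting (3, 1), succinate dehydrogenase (3, 2) and glycine-rich RNA-binding proteins (0). Of other markers, the guard cell gene FMA averaged 5.92, the meristem gene CLV3 lay at the floor of 2.2, and 0 of 2 phloem genes were on the table. The precision is limited by the number of arrays.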

Additional observations from a re-analysis of the deposited data

Results flagged for a closer look

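Without the extract as a block, the loading of 4 members differed between ZT6 and ZT18 by limma's test of the difference itself. AT5G64110 was higher at ZT6 by 1.97, AT5G44380 by 1.71 and ATSBT5.2 by 1.52 on the log2 scale, and AT5G01870 was lower by -1.98. The loading of AT1G54410 was lower at ZT12 than at ZT0 by -1.38. Over the 4 times, limma's moderated F was 15.3 for AT5G64110, 10.5 for AT1G54410, 9.02 for ATSBT5.2, 8.80 for AT5G01870 and 7.57 for AT5G07030. For AT5G64110, AT5G44380 and AT5G01870 the non-polysomal values differed more between ZT6 and ZT18 than the large polysomal ones.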

How the results depend on the processing

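Under 7 re-choices of the members, 134 to 147 of the 150 stayed; median loading was 2.12 after cyclic loess, and the other median-loading alternatives moved it by less than its SD over extracts of 0.07. Of 25 level calls of named members, 21 held under each alternative run; the exceptions were AT4G12500, AT4G12490, AT2G43620 and M17. Of 10 loading calls 0 did. No result reversed. Leaving out 1 replicate gave 0 members called for loading over the day, 0 to 4 higher and 0 to 2 lower at ZT6 against ZT18, and 0 lower at ZT12 against ZT0. It gave 28 to 31 members higher and 12 to 17 lower in level at ZT6 against ZT18. Without replicates 2 and 3 of ZT18, 0 loadings differed over the day, 0 were higher and 0 lower at ZT6, and 24 levels were higher and 13 lower at ZT6. Cyclic loess left 0 loadings lower at ZT12 against ZT0. With the extract as a replicate block, 11 loadings differed over the day, 11 were higher and 6 lower at ZT6 against ZT18, and 2 were higher at ZT12 against ZT0. The causes were not tested, beyond the fewer samples left. Same-numbered extracts of different times correlated at -0.11 to 0.62, and 7 of 12 correlated best with their own number. Those of replicate 1 correlated at 0.34 to 0.62. The number was not taken to pair the extracts, since some same-numbered pairs of replicates 2 and 3 lay under 0.1. With it as a replicate block, each count of level calls moved by less than 1.5 times (over the day 99 members, where 60.7% of all genes did). Close to the floor, where differences are compressed, lay the non-polysomal mean of AT2G04850 (under 3) and, at 1 time or more, those of 6 members, AT5G64110, AT4G12500 and AT5G55670 among them.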

Other observations

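Among the 150 members, 3 pairs of genes are direct neighbours in the TAIR10.1 gene order, against 0 pairs among the 150 transcripts most depleted from large polysomes. These are AT5G55660, the DEK-domain gene, with AT5G55670, an RNA-binding protein gene (loadings of 3.17 and 2.83), AT5G07020, a plastid protein gene, with AT5G07030, an aspartyl protease gene (2.437 and 2.105), and AT2G42520, a DEAD-box helicase gene, with COR15B (2.356 and 2.099). No test was made of this count, and neighbour pairs in other sets of tested genes were not counted, so 3 against 0 cannot show clustering. The members lay on all nuclear chromosomes, with 29, 31, 31, 26 and 33 on chromosomes 1 to 5. The 6761 nuclear genes tested had 1764, 985, 1395, 1000 and 1617 there, so chromosome 1 held the most genes tested but not the most members. The difference was not tested.

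A second probe set of its own was at hand for 4 members. For AT4G16980, an arabinogalactan protein gene, it averaged 10.8 and had a loading of 2.62 ± 0.36 (SD, n = 12), above 0 in 12 of 12 extracts, beside 2.20 for the brighter one. The second probe sets of AT4G12640, AT1G31710 and AT1G72390 averaged 2.25, 2.28 and 2.22 over the arrays, at the floor of the scale, and could not measure a loading.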
